A study of Mus musculus with 9 samples.

Results

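All 6 mouse oral tumors that carried the p53R172H allele were set against the 3 oral tumors that had lost p53, which together are all 9 arrays of the series. Attention was given to genes in which every one of the 6 mutant tumors lay on the same side of every one of the 3 p53-deleted tumors. Such genes are called separated here. There were 885 of them (7.27%) among 12167 genes tested and 18193 measured, 406 higher and 479 lower in the p53R172H tumors.

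The tumors arose in mice with activated Ras combined with altered p53, per the series title, and all mice were 1 year old. By their labelled genotypes 3 tumors were p53-/-, 3 were p53R172H/- (missense over null) and 3 were p53R172H/+ (missense over wild type). The source labels put the prefix K- before each genotype. They do not say what K- stands for, which Ras allele was used, which promoter or Cre drove it, or whether the p53R172H/+ tumors kept their wild-type allele. The labels do not tie tumors to animals, so every p-value reflects only how much these 9 tumors vary, and that variation may be technical. Each array gave 1 signal intensity per probe set, and each gene is represented by its brightest probe set.

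The p53 protein is a transcription factor that is switched on by DNA damage and oncogenic stress and that then restrains the cell cycle or triggers cell death. R172H is a missense substitution in its DNA-binding domain. It takes away sequence-specific binding while the protein itself is made and often accumulates in tumors, whereas a deleted gene leaves no protein. Setting missense tumors against null tumors asks whether the mutant protein does more than remove p53 function, which is often called gain of function. The p53R172H/+ tumors may also have kept a wild-type allele. In the pooled comparison effects of the mutant and of the wild-type protein therefore cannot be told apart.

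The median signal of an array was between 109 and 123 units and its 99th percentile between 5455 and 5726. The number of arrays limits the precision. With limma (Benjamini-Hochberg over 12167 genes) 0 genes, 0% of those tested, differed between mutant and deleted tumors at an adjusted p of 0.05, and the smallest adjusted p was 0.152. At an unadjusted p under 0.05 there were 832 higher genes (6.84% of those tested) and 1106 lower genes (9.09%). Single genes are therefore given as values, and none is said to have changed. Means were higher in the mutant tumors for 5294 genes (43.5%), and the median log2 difference of all tested genes was -0.03. The separated genes made up 3.34% of tested genes in the higher and 3.94% in the lower direction. Since they were picked by their values, their differences are descriptions.

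The separated differences were mostly small. The median size was 0.32 on the log2 scale for higher genes (1.24-fold) and 0.31 for lower genes (1.24-fold). Of the higher genes 45 were over 1.5-fold and 6 over 2-fold, and of the lower genes 36 and 6. The gap, which is the log2 distance between the nearest mutant and the nearest deleted tumor, had a median of 0.056 for higher and 0.050 for lower genes. It was over 0.25 in 17 higher and 13 lower genes and reached 0.68 and 0.52. At the edge of the rule stood genes whose nearest tumors differed by fractions of a unit. Just inside were Oprk1, with 133.61 in the lowest mutant and 133.60 in the highest deleted tumor, and Dexi, with 772.42 in the highest mutant and 772.46 in the lowest deleted tumor. Just outside were Scn9a (136.19 and 136.21) and Serpinc1 (134.04 and 134.00).

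**Figure D1:**
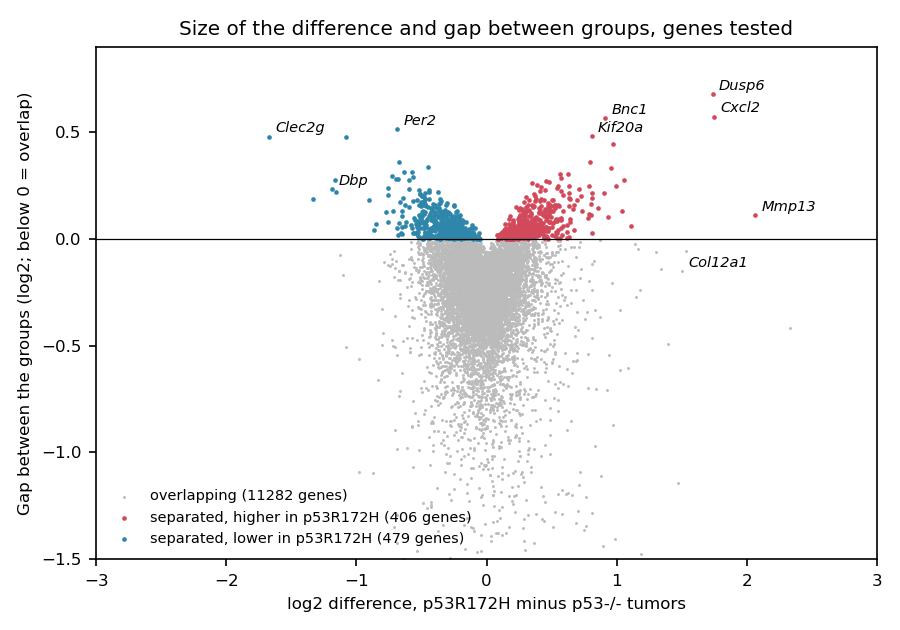
Each point is 1 of 12167 tested genes, with the mean log2 difference of p53R172H minus p53-/- tumors on the x axis and the log2 gap between the groups on the y axis, where values below 0 mean overlap and 139 genes below -1.5 lie outside the plot. The 406 red and 479 blue genes lie above 0, and Dusp6 has the widest gap, 0.68.

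The 6 genes over 2-fold higher were Mmp13 (4.19-fold), Cxcl2 (3.36-fold), Dusp6 (3.34-fold), Ifitm1 (2.16-fold), Retnla (2.08-fold) and Slfn4 (2.06-fold). The 6 over 2-fold lower were Clec2g (3.19-fold), Erdr1 (2.52-fold), Dbp (2.28-fold), Lce1m (2.25-fold), Cited4 (2.23-fold) and 1700097N02Rik (2.12-fold). Ifitm1, Retnla, Slfn4, Erdr1, Lce1m and Cited4 are named because of these values. Retnla encodes a resistin-like protein of alternatively activated macrophages and Slfn4 a Schlafen protein of myeloid cells. Retnla was at 91.3, 87.3 and 80.3 signal units in the p53-/- tumors and ran from 111 (median 184) to 311 in the mutant tumors. Slfn4 was at 217, 161 and 192 in the p53-/- tumors and ran from 237 (median 405) to 644 in the mutant tumors. Cited4, a co-activator that binds CBP and p300, was at 952, 1157 and 1044 in the p53-/- tumors and ran from 203 (median 502) to 817 in the mutant tumors.

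**Figure D2:**
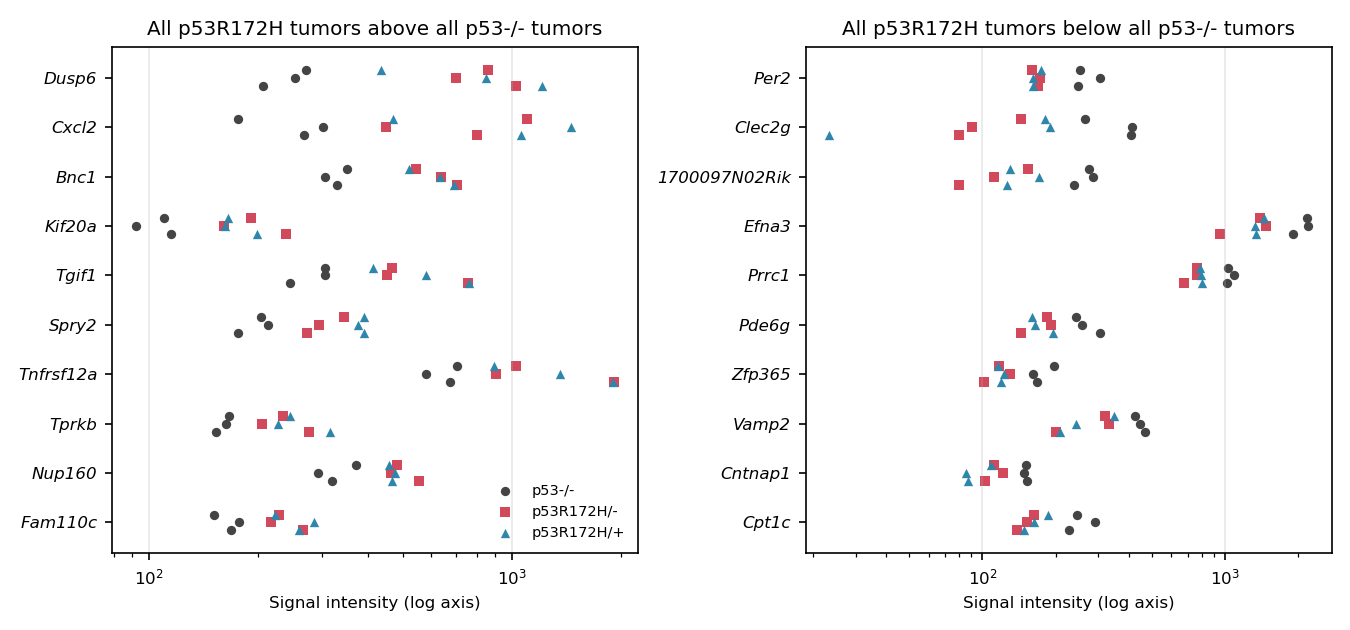
The signal intensity of each tumor (log axis) is shown for the 10 higher and the 10 lower genes with the widest gaps, with 3 tumors per genotype. In each gene the 6 mutant tumors lie on one side of the 3 p53-/- tumors, with gaps from 0.68 for Dusp6 down to 0.28 for Cpt1c.

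The widest gap of all belonged to a gene of the Ras pathway's own feedback. Active Ras signals through RAF, MEK and ERK, and ERK output switches on phosphatases and Sprouty proteins that damp the pathway. Of 16 tested genes in the list of Ras and MAPK output, 6 (37.5%) were separated and higher in the mutant tumors, against 3.34% of all tested genes. They were the feedback phosphatases Dusp5 and Dusp6, the Ras and ERK inhibitors Spry2 and Spred1, the early response gene Ier3, and Tgfa, a ligand of the EGF receptor. The list's median log2 difference was 0.38, against -0.03 over all genes tested. With a brightness filter 4 times stricter 5 of 9 tested genes were separated higher, and 184 of all 4714 genes then tested. With the mean of all probe sets 4 of the 16 list genes were. The list was chosen with earlier results of these data known, so these shares are descriptions.

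Dusp6 encodes a cytoplasmic phosphatase of ERK. Its signal was 206, 253 and 272 in p53-/- tumors 1 to 3. It was 1027, 701 and 861 in the p53R172H/- tumors and 1213, 848 and 434 in the p53R172H/+ tumors. The lowest mutant tumor was p53R172H/+ tumor 3, and the groups did not overlap. The log2 difference was 1.74 ± 0.28 (SE; limma adjusted p = 0.183). Without p53R172H/+ tumor 3 it was 1.94 and Dusp6 was then the 1 gene past the threshold (limma adjusted p = 0.0375).

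Spry2, a feedback inhibitor of receptor tyrosine kinases, was at 176, 213 and 204 in the p53-/- tumors. It was at 273, 294 and 345 in p53R172H/- tumors and at 391, 376 and 392 in p53R172H/+ tumors. The 3 genotypes did not overlap, with the p53R172H/+ tumors highest. The log2 difference between mutant and deleted tumors was 0.80 ± 0.10 (SE; limma adjusted p = 0.152). That between the mutant genotypes, p53R172H/- minus p53R172H/+, was -0.35 ± 0.12 (SE; limma adjusted p = 0.949). The other probe set of Spry2 had a mutant minus deleted difference of 0.38 and was not separated.

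Tgfa was at 717, 847 and 823 in the p53-/- tumors and ran from 919 (median 1057) to 1348 in the mutant tumors. Other probe sets of Tgfa had differences of 0.05 and 0.30 and were not separated. Ier3 was at 2108, 2591 and 2327 in the p53-/- tumors and ran from 2739 (median 3144) to 4130 in the mutant tumors. Dusp5 had a log2 difference of 0.35 and Spred1 of 0.20. In each of these 4 genes the nearest tumors were close, with gaps of 0.04 to 0.12. Not all output genes lay this way. Ereg, which encodes epiregulin, another EGF receptor ligand, had -0.35 ± 0.13 (SE) and overlapped, as did the cyclin gene Ccnd1 with -0.21 ± 0.17 (SE). Phlda1 (0.56), Hbegf (0.46), Fosl1 (0.45) and Epha2 (0.38) had higher means, but their ranges overlapped those of the p53-/- tumors. Of 18 immediate-early genes, the first transcripts induced by such signals, 0 were separated. Their median was 0.25, and it was 0.13 without p53-/- tumor 2 and 0.36 without p53-/- tumor 3. Without p53-/- tumor 3 or p53R172H/- tumor 2, 3 of them were separated higher. Over all genes 884 were separated higher without p53-/- tumor 3, in place of 406. In all 9 tumors 6 of the 18 were higher at an unadjusted p under 0.05 in limma, against 6.84% of all tested genes. Among them were Fos (0.70 ± 0.21 SE), Ier2 (0.46 ± 0.11 SE) and Junb (0.45 ± 0.11 SE).

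A neutrophil chemokine and a secreted protease were among the separated genes over 2-fold higher. Cxcl2 encodes a chemokine that draws neutrophils through the receptor CXCR2. Its signal was 266, 301 and 176 in the p53-/- tumors, 800, 449 and 1102 in the p53R172H/- tumors and 1060, 1458 and 471 in the p53R172H/+ tumors. The mutant tumors differed widely among themselves, and all were above the deleted ones (log2 difference 1.75 ± 0.38 SE; limma adjusted p = 0.187). It was the only separated gene of the 12 tested in the neutrophil list, whose median was 0.31. Without p53-/- tumor 1, 3 of its genes were separated higher and 1 lower, and of all genes 827 and 894. Il1b, the interleukin 1 beta gene, had 1.17 ± 0.31 (SE) and missed separation narrowly, since p53R172H/- tumor 2 was at 516 and p53-/- tumor 1 at 533. Clec4e, a lectin receptor gene of myeloid cells, had 1.34 ± 0.48 (SE) with overlap, and Cxcr2 itself had -0.31 ± 0.14 (SE). Expressed as the mean log2 signal of the list, neutrophil genes were at 8.61 to 8.95 in the p53-/- and at 8.97 to 9.58 in the mutant tumors. This level includes Cxcl2, a gene picked by the rule, so it is not a separate reading. The nearest tumors, p53-/- tumor 1 and p53R172H/- tumor 1, were at 8.95 and 8.97. Cxcl2 was at 266 and 800 in these 2 tumors, and without Cxcl2 the list's levels overlapped between the groups. The macrophage and monocyte list overlapped, at 8.22 to 8.77 and 8.21 to 9.17. What part these cells have in the values of Cxcl2 was not tested.

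Among 23 tested matrix protease and invasion genes 3 (13.0%) were separated, all higher, against 3.34% of all tested genes. Mmp13, a collagenase, was at 276, 52.3 and 254 in the p53-/- tumors, where tumor 2 was below the floor of 52.6 units set for all arrays. It was at 299, 618 and 518 in p53R172H/- tumors and at 1104, 964 and 727 in p53R172H/+ tumors. The p53R172H/+ tumors were highest and p53R172H/- tumor 1 was close to the deleted tumors (log2 difference 2.07 ± 0.49 SE; limma adjusted p = 0.188). Without p53-/- tumor 2 the log2 difference was 1.29. Mmp10, a stromelysin, was at 91.8, 106 and 99.4 in the p53-/- tumors and ran from 119 (median 170) to 272 in the mutant tumors. It reached the 113 units set for testing only through the mutant tumors. Adam8, a membrane metalloprotease of leukocytes and tumor cells, was at 215, 159 and 192 in the p53-/- tumors and ran from 249 (median 363) to 445 in the mutant tumors. The other members were mixed, with Mmp2 at -0.29 and Mmp9 at -0.07. The list's median of 0.15 was -0.07 without p53-/- tumor 2. Without p53-/- tumor 1, 5 of its genes were separated higher, and 827 of all genes, in place of 406.

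Tnfrsf12a, which encodes the receptor of the cytokine TWEAK, was at 676, 580 and 706 in the p53-/- tumors and ran from 890 (median 1191) to 1916 in the mutant tumors. A second probe set of Tnfrsf12a was also separated, with the same log2 difference of 0.96. Tgif1, a homeodomain repressor that limits Smad signalling, was at 244, 305 and 305 in the p53-/- tumors and ran from 415 (median 524) to 763 in the mutant tumors. In the TGF-beta and EMT list 2 of 22 tested genes (9.09%) were separated, both higher, against 3.34% of all tested genes. They were the inhibitory Smad gene Smad7 (0.66 ± 0.16 SE) and Id1, an inhibitor of helix-loop-helix factors (0.64 ± 0.22 SE).

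Genes of mitosis formed the largest group of separated genes among the lists. Of 39 tested genes 38 had a higher mean in the mutant tumors, the exception being Hmmr at -0.03. The median log2 difference was 0.42, and 30 were higher at an unadjusted p under 0.05 in limma, against 6.84% of all tested genes. Of the 39 genes 12 (30.8%) were separated, all higher, against 3.34% of all tested genes. They were the kinesin genes Kif20a and Kif11, the spindle genes Nusap1 and Tpx2, the kinetochore and checkpoint genes Cenpa, Cenpe, Bub1, Ttk and Spc24, the survivin gene Birc5, Ect2 (cytokinesis) and Cdc20, the activator of the anaphase-promoting complex. With p53R172H/- tumors alone the list's median was 0.58 and 28 genes were separated, and with p53R172H/+ tumors alone 0.27 and 13. The higher counts over all tested genes were then 1108 and 862, in place of 406. Both comparisons share the p53-/- tumors. With p53R172H/+ tumors alone 14 mitosis genes were higher at an unadjusted p under 0.05 in limma, and 538 of all genes. The difference between the genotypes was not tested for the list. In whole tumors a larger share of dividing cells and more RNA per dividing cell cannot be told apart.

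Many mitotic genes are repressed in quiescent cells through a short promoter element called CHR (cell cycle genes homology region), often beside CCAAT boxes. Promoters of 9 of the 12 separated genes were found in RefSeq (GRCm38.p6), each from 250 bases before to 50 after the start of the gene. TTTGAA, a core form of CHR, was found on either strand in 5 of the 9, compared with 17.9% of 32851 promoters of the same length. CCAAT, which does not overlap it, was found in 7 of the 9, compared with 37.4%. It was also found in 4 of 4 separated circadian clock genes with a promoter, so it is not particular to mitosis genes. These counts are of genes, while the shares are of promoters. A match describes the letters only. Promoters are printed for Cdc20 (chr4:118437294-118437593, minus strand) and Cenpa (chr5:30666636-30666935, plus strand), 2 separated genes that hold the motif near the start. Capitals mark TTTGAA, which begins at position -18 in Cdc20 and at position 17 in Cenpa relative to the start.
Cdc20: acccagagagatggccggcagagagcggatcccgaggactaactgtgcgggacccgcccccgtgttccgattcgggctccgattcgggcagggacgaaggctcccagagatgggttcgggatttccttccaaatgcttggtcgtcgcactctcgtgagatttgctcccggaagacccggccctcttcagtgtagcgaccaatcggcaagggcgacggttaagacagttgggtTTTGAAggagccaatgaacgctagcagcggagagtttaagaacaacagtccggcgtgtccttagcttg
Cenpa: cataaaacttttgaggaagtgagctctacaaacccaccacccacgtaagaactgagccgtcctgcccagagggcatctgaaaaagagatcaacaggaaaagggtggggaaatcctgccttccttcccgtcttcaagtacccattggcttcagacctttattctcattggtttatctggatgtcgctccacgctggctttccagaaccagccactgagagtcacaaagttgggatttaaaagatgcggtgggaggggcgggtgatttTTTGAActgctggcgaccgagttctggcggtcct

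Kif20a, a kinesin of cytokinesis, had the widest gap of the list, 0.48. Its signal was 115, 91.9 and 110 in the p53-/- tumors, 239, 160 and 192 in the p53R172H/- tumors and 198, 162 and 166 in the p53R172H/+ tumors. The p53-/- mean of 106 was under the 113 units set for testing, which Kif20a reached through the mutant tumors. The log2 difference was 0.81 ± 0.14 (SE; limma adjusted p = 0.183). Cdc20, whose promoter is printed above, was at 1219, 1168 and 1050 in the p53-/- tumors and ran from 1469 (median 1561) to 1741 in the mutant tumors. Its 2 other probe sets had log2 differences of 0.54 and 0.01, neither separated. Nusap1 was at 254, 178 and 198 in the p53-/- tumors and ran from 275 (median 370) to 487 in the mutant tumors. Cenpa, the centromeric histone gene, was at 426, 377 and 323 in the p53-/- tumors and ran from 445 (median 585) to 725 in the mutant tumors.

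The other 27 mitosis genes overlapped. For Ccnb2, a mitotic cyclin gene, p53-/- tumor 1 was at 469, while p53R172H/+ tumor 2, the lowest mutant tumor, was at 457. Without p53-/- tumor 1 the count of separated mitosis genes was 31, and without p53R172H/+ tumor 2 it was 19. Over all genes 827 were separated higher without p53-/- tumor 1, in place of 406. With any 1 tumor left out the count over all genes was 445 to 884. The proliferation marker Mki67 was at 1055, 674 and 794 in the p53-/- tumors, at 1180, 1195 and 1205 in the p53R172H/- tumors and at 900, 778 and 860 in the p53R172H/+ tumors. The p53R172H/- tumors lay above all deleted tumors (log2 difference 0.53) and the p53R172H/+ tumors among them (0.03). The difference between the mutant genotypes was 0.50 ± 0.15 (SE; limma adjusted p = 0.927). DNA replication genes had a median of 0.10 over 31 tested genes, and 2 (6.45%) were separated higher, against 3.34% of all tested genes. They were Prim1 (0.25 ± 0.10 SE, with another probe set at 0.03 and not separated) and Pclaf (0.57 ± 0.09 SE). Pclaf encodes a PCNA-binding factor and was at 1272, 1045 and 1065 in the p53-/- tumors and from 1485 (median 1733) to 1850 in the mutant tumors. As a measure of RNA quality, the log2 ratio of the 3' to the 5' control probe set of Actb was 0.59 to 0.75 in the p53-/- tumors and 0.39 to 0.64 in the mutant tumors. The corresponding Gapdh ratio was -0.06 to 0.05 and -0.11 to 0.01, and with it as a covariate 22 mitosis genes were higher at an unadjusted p under 0.05, and 544 genes of all.

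Of 26 tested hypoxia and glycolysis genes 4 (15.4%) were separated, all higher, and the list's median was 0.15. Without p53-/- tumor 3 or p53R172H/+ tumor 3 the count was 7. The higher counts over all genes were then 884 and 736, in place of 406. Vegfa, an angiogenic factor, was at 269, 336 and 270 in the p53-/- tumors and ran from 368 (median 401) to 527 in the mutant tumors. Another probe set of Vegfa had 0.23 and was not separated. Adm, which encodes the vasodilator adrenomedullin, had 0.50 ± 0.15 (SE), but another probe set had -0.04. The glycolytic enzyme genes Tpi1 (0.19 ± 0.06 SE) and Ldha (0.14 ± 0.06 SE) were separated by 0.02 or less. The NRF2 target list did not lie in 1 direction, with lower means in 14 of 23 tested genes and a median of -0.08. In it 2 genes (8.70%) were separated, both higher, against 3.34% of all tested genes. They were Gsr, glutathione reductase (0.81 ± 0.22 SE), and Ugdh, which makes UDP-glucuronate (0.39 ± 0.10 SE).

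Bnc1 encodes the zinc finger protein basonuclin of basal keratinocytes. It had a gap of 0.57 and tight values. It was at 329, 306 and 352 in the p53-/- tumors, at 706, 637 and 543 in the p53R172H/- tumors and at 694, 635 and 522 in the p53R172H/+ tumors. The log2 difference was 0.91 ± 0.12 (SE; limma adjusted p = 0.152), and 0.86 to 0.97 with any 1 tumor left out. It was the 1 separated gene of 10 tested basal keratinocyte genes. The mean log2 signal of that list was 11.1 to 11.3 in the p53-/- and 11.2 to 11.3 in the mutant tumors. Further genes complete the 10 widest gaps on the higher side. Tprkb, which encodes a partner of the p53-related protein kinase in the KEOPS complex, had 0.63 ± 0.13 (SE), the nucleoporin gene Nup160 had 0.56 ± 0.10 (SE), and Fam110c had 0.57 ± 0.11 (SE).

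**Figure D3:**
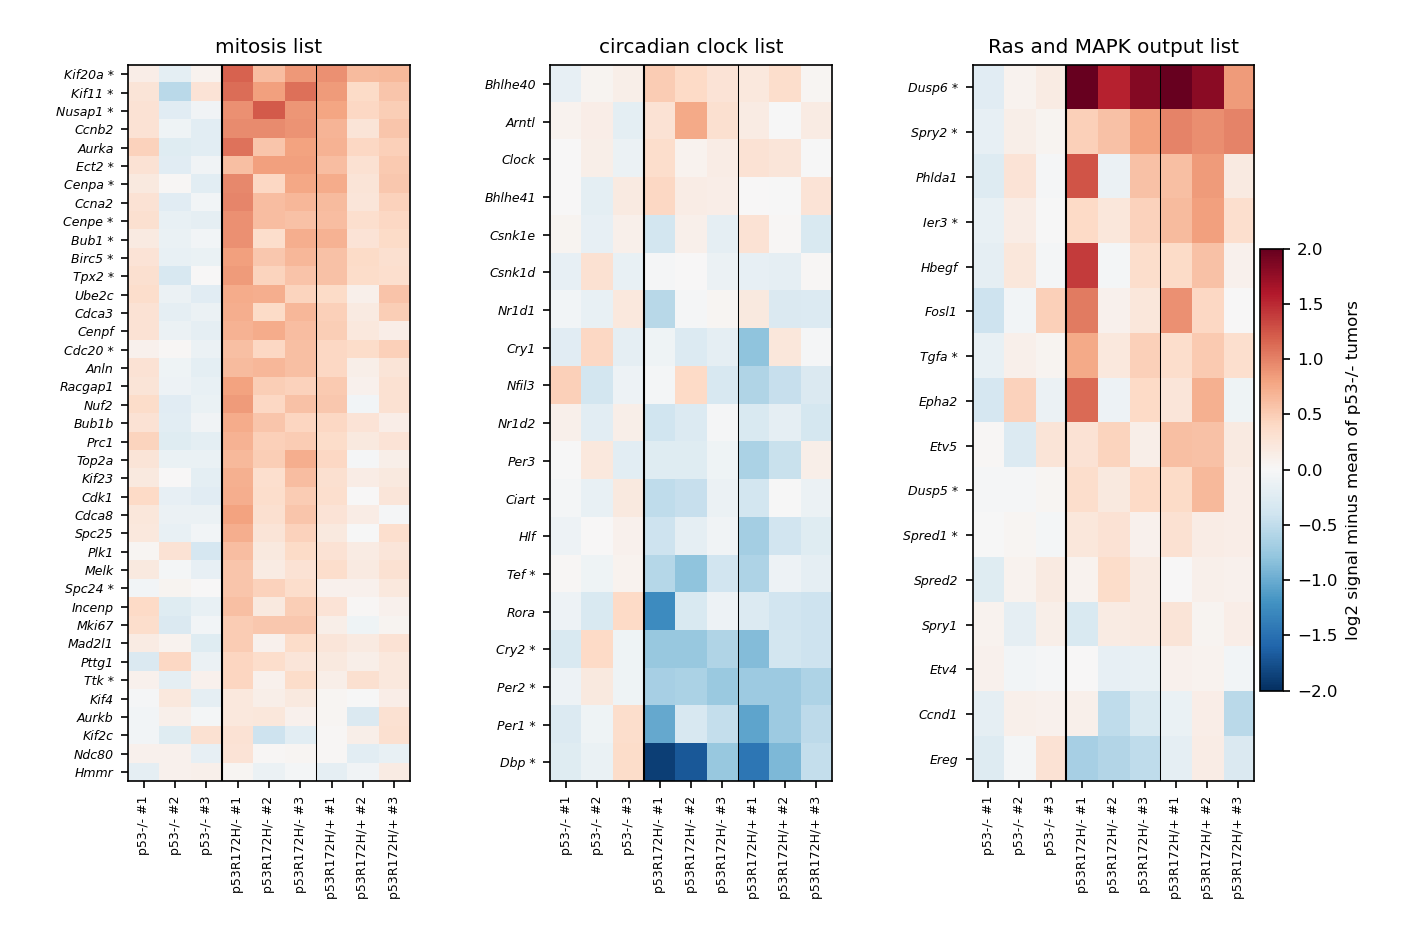
Colour gives the log2 signal of each tumor minus the mean of the 3 p53-/- tumors for the tested genes of the mitosis, circadian clock and Ras and MAPK output lists, and an asterisk marks a separated gene (12, 5 and 6 genes). The mitosis panel is mostly red in the mutant columns, and Dbp, Per1 and Per2 are blue in all of them.

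On the lower side the list with the most separated genes was the circadian clock. In this oscillator CLOCK and BMAL1 (gene Arntl) activate Per, Cry, Dbp and Tef genes through E-boxes, and PER and CRY proteins feed back to repress them. Of 19 tested genes 5 (26.3%) were separated, all lower, against 3.94% of all tested genes. They were Per1, Per2 and Cry2, which encode repressors, and Dbp and Tef, which encode PAR bZIP output factors. The list's median was -0.25. Its mean log2 signal was 8.84 to 8.96 in the p53-/- tumors and 8.51 to 8.73 in the mutant tumors. This level includes the 5 separated genes, which were picked by the rule, so it is not a separate reading. With a brightness filter 4 times stricter 2 of 8 tested clock genes were separated lower, and 183 of all 4714 genes then tested. With the mean of all probe sets 4 of the 19 clock genes were. The labels give no hour of day for the collection of the tumors.

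RefSeq promoters (GRCm38.p6, same window) were found for 4 of the 5 genes. The E-box CACGTG, which reads the same on both strands, was found in 2 of the 4, compared with 7.15% of all promoters. Both are printed, as the letters that CLOCK and BMAL1 are known to bind. For each gene 1 of its 2 listed promoters is shown, Per1 at chr11:69098699-69098998 (plus strand, E-box from position -166) and Tef at chr15:81802423-81802722 (plus strand, E-box from position -127). The count above is of genes, while the share is of promoters. Capitals mark CACGTG.
Per1: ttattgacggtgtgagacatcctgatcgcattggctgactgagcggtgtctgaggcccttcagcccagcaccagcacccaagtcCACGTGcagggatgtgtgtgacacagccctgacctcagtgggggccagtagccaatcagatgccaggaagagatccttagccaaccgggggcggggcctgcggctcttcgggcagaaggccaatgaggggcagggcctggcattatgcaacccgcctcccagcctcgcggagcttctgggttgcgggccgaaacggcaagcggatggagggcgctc
Tef: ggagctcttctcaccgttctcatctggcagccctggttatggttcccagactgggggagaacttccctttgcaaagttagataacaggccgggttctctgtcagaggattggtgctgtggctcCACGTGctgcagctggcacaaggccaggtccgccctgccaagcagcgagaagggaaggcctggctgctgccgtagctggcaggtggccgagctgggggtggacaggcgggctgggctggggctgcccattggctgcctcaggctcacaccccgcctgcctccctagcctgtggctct

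Per2 had the widest gap on the lower side, 0.52. It was at 248, 305 and 252 in the p53-/- tumors, at 169, 173 and 159 in the p53R172H/- tumors and at 161, 162 and 174 in the p53R172H/+ tumors. The 6 mutant tumors lay within a narrow range below all deleted tumors, and the log2 difference was -0.69 ± 0.09 (SE; limma adjusted p = 0.166). Both other probe sets of Per2 were separated too, each at -1.07. Dbp was at 1282, 1379 and 1951 in the p53-/- tumors, at 411, 469 and 894 in the p53R172H/- tumors and at 557, 814 and 1090 in the p53R172H/+ tumors. Its log2 difference was -1.19 ± 0.28 (SE; limma adjusted p = 0.188), and its other probe set was separated at -0.95. Per1 was at 281, 322 and 435 in the p53-/- tumors and ran from 164 (median 220) to 272 in the mutant tumors. Cry2 had -0.63 ± 0.17 (SE) and Tef -0.44 ± 0.13 (SE). The activator genes lay the other way, Arntl at 0.28 ± 0.13 (SE) and Clock at 0.18 ± 0.10 (SE), both with overlap. Bhlhe40, a repressor gene of the same loop, was at 0.30 ± 0.10 (SE) and overlapped. Nr1d1, another, was at -0.15 ± 0.17 (SE).

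The remaining lower genes with wide gaps belong to no single list. Clec2g, a C-type lectin-like gene, was at 408, 414 and 264 in the p53-/- tumors, at 80.3, 90.2 and 145 in the p53R172H/- tumors and at 23.4, 189 and 181 in the p53R172H/+ tumors. The value of p53R172H/+ tumor 1 was below the floor and was raised to it in the fit, which gave -1.67 ± 0.40 (SE; limma adjusted p = 0.190). The RIKEN transcript 1700097N02Rik was at 237, 286 and 276 in the p53-/- tumors and ran from 80.3 (median 128) to 170 in the mutant tumors. Its 2 other probe sets were separated in the same direction, at -1.11 and -0.31. Efna3, which encodes the Eph receptor ligand ephrin A3, was at 1899, 2196 and 2183 in the p53-/- tumors and ran from 955 (median 1368) to 1480 in the mutant tumors. Its other probe set was separated at -0.74. Prrc1 was at 1019, 1089 and 1024 in the p53-/- tumors and ran from 674 (median 777) to 806 in the mutant tumors. Other probe sets of Prrc1, with mean signals of 272 and 152, had -0.16 and -0.01 and were not separated. A dimmer one was separated at -0.30.

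The other lower genes among the 10 widest gaps are given by their differences. Vamp2, a SNARE of synaptic vesicles, had -0.73 ± 0.20 (SE), Cntnap1, a protein of axon and glia contacts, -0.56 ± 0.11 (SE), and Cpt1c, the neuronal carnitine palmitoyltransferase isoform, -0.68 ± 0.11 (SE). Pde6g, a phosphodiesterase subunit of photoreceptors, had -0.64 ± 0.13 (SE) with its other probe set at 0.04, and the zinc finger gene Zfp365 had -0.58 ± 0.11 (SE). Other probe sets of Vamp2 (-0.16) and Zfp365 (-0.18) were not separated. In the nerve and Schwann cell marker list 0 of 8 tested genes were separated.

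Late cornified envelope genes, a cluster of differentiation genes of the uppermost keratinocyte layers, were looked at after their values were seen. All 15 measured Lce genes were tested, 14 had lower means in the mutant tumors and 5 were separated, against 3.94% of all tested genes, namely Lce1a2, Lce1b, Lce1c, Lce1d and Lce1m. Their median was -0.30, with a range from -1.17 for Lce1m to 0.03 for Lce3c. With p53R172H/- tumors alone the median was -0.45 and 9 were separated, and with p53R172H/+ tumors alone -0.12 and 5. The lower counts over all genes were then 1681 and 1078, in place of 479. Lce1b was at 7307, 6490 and 6623 in the p53-/- tumors and ran from 3063 (median 5410) to 5979 in the mutant tumors, with p53R172H/- tumor 1 lowest. Lce genes are close copies of each other, so probe sets may share signal and the members are not independent. The suprabasal and cornified keratinocyte list, which holds none of them, had 0 separated genes of 25 tested and overlapped in level, at 12.8 to 13.0 in the p53-/- and 12.8 to 13.1 in the mutant tumors.

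Of 30 tested transcriptional targets of p53, 2 were separated, both lower, which is 6.67% against 3.94% of all tested genes. The median was -0.09. The 2 were Dcxr, a carbonyl reductase gene (-0.66 ± 0.14 SE), and Tap1, the peptide transporter gene of antigen presentation (-0.35 ± 0.10 SE). At an unadjusted p under 0.05 in limma 6 of the 30 were lower and 3 higher, against 9.09% and 6.84% of all tested genes. Without p53-/- tumor 1 there were 4 lower and 2 higher targets separated, and with p53R172H/- tumors alone 9 lower and 1 higher. Over all genes the first setting gave 894 lower and 827 higher, and the second 1681 lower and 1108 higher. The median was near 0 in some alternatives, at 0.0061 with the mean of all probe sets, -0.00048 with p53R172H/+ tumors alone and -0.03 without p53R172H/- tumor 1. Cdkn1a, which encodes the cell cycle inhibitor p21, was at 2249, 2727 and 2855 in the p53-/- tumors and at 2151 (median 2433) to 2737 in the mutant tumors, which overlap. Its log2 difference was -0.10 ± 0.08 (SE), while its other probe set was at 0.50. Mdm2, whose product marks p53 for degradation, was at 0.09 ± 0.10 (SE), and Ccng1 had -0.36 ± 0.15 (SE) with overlap. Other probe sets of Ccng1 were at -0.07 and 0.04.

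Of the 32 lists, 15 had no separated gene. The apoptosis and survival list had 2 higher (Mcl1 and Birc3) and 1 lower (Bid) of 21 tested, and with the mean of all probe sets it had 0 higher and 1 lower. The DNA repair list had 2 higher (Ogg1 and Chek2) and 1 lower (Neil1) of 22, and the mevalonate list 1 higher (Sc5d) and 2 lower (Mvd and Dhcr7) of 20. Chek2 reached the 113 units set for testing only through the mutant tumors. The proteasome list had 1 lower (Psmd3) of 31, the interferon list 1 lower (Tap1) of 13 and the T and NK cell list 1 lower (Cd5) of 8. These are 1 or 2 genes in each direction of a list, and the background is 3.34% higher and 3.94% lower. Col1a1, the type I collagen gene, had -0.50 ± 0.19 (SE) and overlapped, while its other probe set was separated lower at -0.70. Col12a1, 2.83-fold higher on average, also overlapped, since it was at 347, 194 and 551 in the p53-/- tumors, at 513, 496 and 707 in p53R172H/- tumors and at 1711, 1961 and 1169 in p53R172H/+ tumors. Of its other probe sets 1 was separated in the opposite direction, at -0.27.

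**Figure D4:**
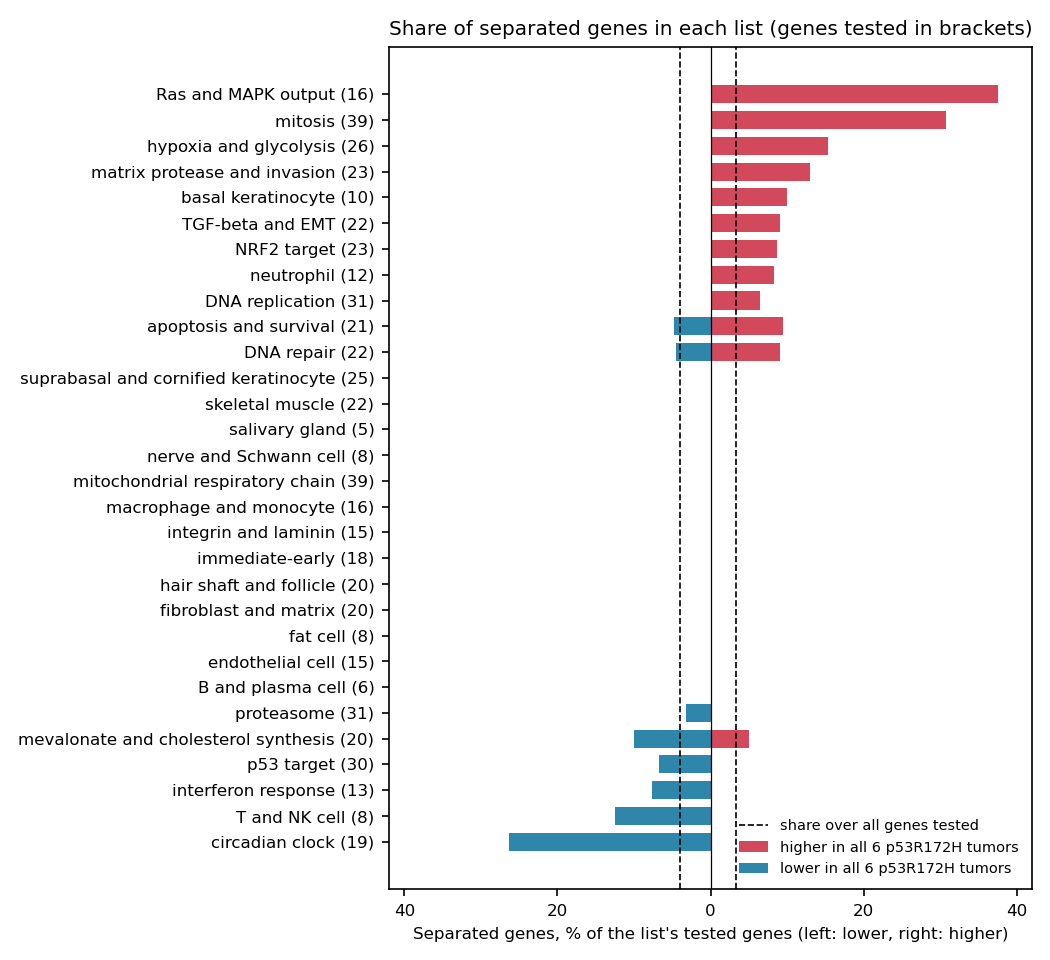
Bars give the percentage of each list's tested genes that were separated, to the right for higher and to the left for lower in the p53R172H tumors, for lists with 5 or more tested genes, and dashed lines give the share over all tested genes (3.34% and 3.94%). The longest bars are those of Ras and MAPK output (37.5%), mitosis (30.8%) and circadian clock (26.3%). Lists and members were chosen with earlier results of these data known, so the bars are descriptions.

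Keratinocyte markers, which define the epithelium of an oral tumor, were present, with 10 of 10 measured basal and 25 of 25 measured suprabasal and cornified genes bright enough to be tested. Other tissues varied between tumors. The mean log2 signal of skeletal muscle genes was 7.60 to 8.14 in the p53-/- tumors, 10.29 and 9.33 in p53R172H/- tumors 2 and 3, and down to 6.46 in the other mutant tumors. Hair shaft and follicle genes ran from 8.41 to 9.40 in the p53-/- and from 7.52 to 10.40 in the mutant tumors, and the fibroblast list reached 11.0 and 10.9. All 3 lists overlapped between the groups, and 0 of their genes were separated. Without p53R172H/- tumors 2 and 3, an alternative chosen after their muscle genes were seen, 13 mitosis, 6 Ras and MAPK output, 3 protease and 6 clock genes were separated in the same directions. Of all genes 634 were then separated higher and 884 lower.

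**Figure D5:**
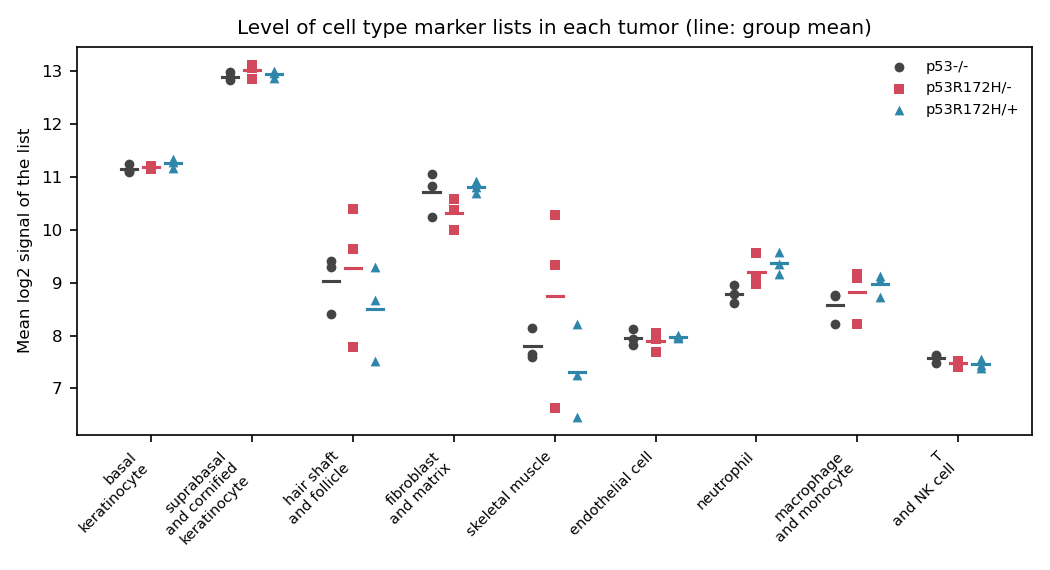
The mean log2 signal of 9 lists of cell type markers is shown for each tumor, by genotype, with a line at the mean of the 3 tumors. Neutrophil genes are the one list shown in which mutant tumors (8.97 to 9.58) do not overlap p53-/- tumors (8.61 to 8.95), and skeletal muscle spreads most, from 6.46 to 10.29. The neutrophil level includes Cxcl2, a gene picked by the rule, and its nearest tumors lie close together. Without Cxcl2 the neutrophil levels overlap.

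The mutant genotypes were also set against the deleted tumors one at a time. With p53R172H/- tumors alone against p53-/- tumors 1108 genes were separated higher and 1681 lower, and with p53R172H/+ tumors alone 862 and 1078. Both comparisons share the p53-/- tumors. Between the mutant genotypes 603 of all tested genes (4.96%) had an unadjusted p under 0.05 in limma, and 0 (0%) passed the adjusted threshold. The mutant tumor nearest to the deleted ones was p53R172H/+ tumor 3 in 357 of the 885 genes (40.3%). Without it 736 genes were separated higher and 1185 lower.

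A second reading of the same genes came from other probe sets of sufficient brightness. For higher genes 262 of 338 such probe sets (77.5%) had the same sign and 60 (17.8%) were separated in the same direction. For lower genes these were 196 of 266 (73.7%) and 35 (13.2%). Probe sets of a gene can read different transcript ends and share the same RNA, so they are not replicates. Per2, Dbp, 1700097N02Rik, Efna3 and Tnfrsf12a were separated on more than 1 probe set, while Adm, Bid, Sc5d and Pde6g had such a probe set of opposite sign, and Mcl1 had 3 between -0.04 and -0.0046. Birc3 and Ogg1 had one of opposite sign that was too dim to count here.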

How the data were processed

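Total RNA of each tumor was column-purified, converted to biotinylated cRNA and hybridised, per the labels' protocols. The authors deposited signal intensity on a linear scale, made with MAS5 per the submitters' processing notes. How it was scaled is not stated there. Among 45101 probe sets the platform annotation pairs 34945 with a single gene symbol, 932 with several and 9160 with none, and 64 are controls. Only those with a single symbol were used. Intensities below the 20th percentile (52.6) were raised to it, log2 was taken without further normalization, and each gene kept its brightest probe set. Genes whose geometric mean over all 9 arrays was under 113 units, the median probe set, were left out. A gene could therefore pass through the group in which it was high. Retnla, Mmp10, Chek2 and Kif20a did so on the higher side and Clec2g, Cntnap1 and Lce1m on the lower side, among others. Of tested values 0.0758% lay at the floor. Group means were fitted to all 9 arrays with limma 3.58.1 in R 4.3.3 (lmFit, eBayes with trend, two-sided) and the mean of both mutant groups was set against p53-/-. The fit was tested on simulated data. Named genes were the 10 widest gaps and 3 smallest p in each direction, up to 3 separated genes with the widest gaps per list, further members where a sentence accounts for a list, the genes next to the rule's edge and 12 fixed genes. Members and lists were chosen with earlier results of these data known. The targeted gene is not reported here. Alternatives were other normalizations, floors, filters, probe set choices, variance models, covariates, the tumor number as a block, single genotypes and each array left out.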

Additional observations from a re-analysis of the deposited data

Results flagged for a closer look

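Among the 6 mutant tumors, 1 tumor stood apart by Dixon's test (the ratio of its gap to the next value and the whole range was past the critical value at 95%) in 10 of 93 genes and list levels checked, where chance alone flags about 1 in 20. Ratios for genes were taken on log2 values, while their signals are printed on the linear scale. In 6 of the 10 the tumor apart was p53R172H/- tumor 1. It was low for Efna3 (955 against 1324 to 1480 in the others, ratio 0.746) and Prrc1 (674 against 763 to 806, ratio 0.692) and high for Nup160 (553 against 459 to 482, ratio 0.733). It was also low in the mean log2 signal of the TGF-beta and EMT list (9.03 against 9.28 to 9.37, ratio 0.740), the matrix protease list (8.92 against 9.15 to 9.27, ratio 0.664) and the endothelial list (7.69 against 7.94 to 8.06, ratio 0.681). p53R172H/+ tumor 2 was high for Vegfa (527 against 368 to 415, ratio 0.666) and low for Serpinc1 (79.9 against 119 to 134, ratio 0.764). p53R172H/- tumor 3 was high in the mevalonate list (10.68 against 10.43 to 10.53, ratio 0.633), and p53R172H/- tumor 2 in the red blood cell list (9.20 against 6.57 to 7.24, ratio 0.746). Groups of 3 tumors were not checked.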

How the results depend on the processing

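No gene passed the adjusted threshold in limma in any alternative except that without p53R172H/+ tumor 3, where 1 gene did. Counts of separated genes (406 higher, 479 lower) and of unadjusted p under 0.05 (832 and 1106) moved more. With a filter 4 times stricter they were 184 and 183, and 407 and 365, since fewer genes were tested, and the difference between mutant genotypes was at an unadjusted p under 0.05 in 337 genes in place of 603. With the muscle level as a covariate that last count was 1047, and with the Gapdh ratio the unadjusted counts were 544 and 562. With p53R172H/- tumors alone 1108 and 1681 genes were separated. With p53R172H/+ tumors alone 862 and 1078 were, with unadjusted counts of 538 and 621. Without p53R172H/- tumors 2 and 3, an alternative chosen after seeing the data, 634 and 884 were separated. With each tumor left out in turn the separated counts ran from 445 to 884 and from 508 to 1200, the unadjusted counts from 508 to 1000 and from 665 to 1527 (lowest without p53-/- tumor 2), the genes past the threshold from 0 to 1, and the unadjusted count between mutant genotypes from 430 (without p53R172H/+ tumor 3) to 935 (without p53R172H/- tumor 1). The separated counts were 827 and 894 without p53-/- tumor 1, 647 and 765 without tumor 2, 884 and 1200 without tumor 3, and 736 and 1185 without p53R172H/+ tumor 3. Without p53R172H/+ tumor 1, 731 lower genes had an unadjusted p under 0.05. Fewer tumors make separation easier by construction. The log2 difference of Cdkn1a turned to 0.20 with the mean of all probe sets and 0.013 with p53R172H/+ tumors alone, and that of Scn9a to -0.000937 with the mean of all probe sets. The cause was not tested. The labels do not say whether tumors of the same number belong together. Deviations of same-numbered tumors correlated from -0.50 to 0.24 and those of differently numbered tumors from -0.47 to 0.52, which cannot settle it. With the number as a block, 0 genes passed and 826 and 1059 had an unadjusted p under 0.05.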
